A study of Mus musculus with 16 samples.

Results

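Long intergenic noncoding RNAs (lincRNAs) were followed in the rods of the mouse retina, the photoreceptor cells that serve vision in dim light, from young adulthood to old age. The rows taken were those of the authors' gene CPM table with the biotype lincRNA and a mean of at least 5 CPM over the 16 libraries (CPM are counts divided by the size of the library, on 1 scale for all), leaving out Gm28876, which gave 463 of 45594 rows and 463 of the 3729 lincRNA rows. These members were thus chosen by their mean level over all ages, and levels are described here without a test. The mean runs over all ages, so a lincRNA low at 3M entered only if it was higher later, and such rises are in part fixed by the choice. Likewise a lincRNA low at 24M entered only if it was higher earlier, and such falls are in part fixed too. Of the 453 tested members described below, 7 were under 5 CPM in every 3M library, and 4 of these (Gm26611, 4930579C12Rik, Gm2044 and A930014E10Rik) were called higher at 24M, while 0 were under 5 CPM in every 24M library. Of the lincRNA rows below the threshold, 3265 in number, 1039 were listed at 0 in the table. The rows just inside the threshold were RP23-332G12.1, A330032B11Rik and RP24-177G14.2, at 5.07, 5.05 and 5.05 CPM in the authors' table. Just outside it lay Gm42810, whose mean fell short of the threshold by less than rounding shows, Gm26520 at 4.99 CPM and Gm26802 at 4.98 CPM.

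The cells came from C57BL/6J mice carrying a green fluorescent protein reporter under the Nrl promoter (Nrlp-GFP), which is active in rods, and were purified by flow sorting of the fluorescent cells. Each of the ages 3, 12, 18 and 24 months, written 3M to 24M, had 4 libraries, all from the same reporter strain with no treatment. The design text calls the 4 libraries of an age biological replicates, and the sources used here do not say whether each was 1 mouse or a pool. The comparison of each later age with 3M asks which transcripts of rods differ as the animal ages.

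A lincRNA is transcribed from its own stretch of the genome between protein-coding genes, is usually spliced and polyadenylated like a messenger RNA, and has no long conserved reading frame. Some act in the nucleus as scaffolds of nuclear bodies or on nearby genes, some serve as precursors of microRNAs or small nucleolar RNAs, and for most no function is known. In neurons and photoreceptors the hosts of the microRNA miR-124 and the nuclear RNA Malat1 are known for their abundance. The names reflect how little is known of most, since 267 of the 463 had only a Gm number, 123 a RIKEN clone name, 34 a BAC clone name and 39 another symbol.

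Of the 463 rows, 454 were matched by gene identifier to the authors' estimated counts and 453 passed the minimum of 5 CPM in at least 4 libraries. Gm26870 did not pass. Dancr, Gm11345, Gm26908, 4930448N21Rik, Gm29669, D130051D11Rik, Gm37276, RP24-274B19.1 and a second listing of RP24-402O2.2 on an alternate patch sequence were not matched. The newer GENCODE annotation of the same genome build (GRCm38) labelled 390 of the matched rows lincRNA, 32 antisense, 14 bidirectional-promoter RNA, 8 processed transcript and 6 protein-coding, 2 transcribed pseudogenes, 1 a processed pseudogene and 1 sense-intronic. All chromosomes except the mitochondrial one were represented, chromosome 5 with 57 rows and chromosome 1 with 50 the most.

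Libraries held 20579144 to 28791777 estimated counts. Rod markers dominated every library, with a summed level of 12 rod genes between 31372 and 43851 CPM, and 2 of the 12 fell at 24M. Cone markers summed to 715 to 935 CPM at 3M and 678 to 1002 at 24M. Bipolar markers summed to 382 to 440 and 363 to 424 CPM, and astrocyte markers to 288 to 318 and 194 to 305. The level summed over 10 Müller glia markers was 123 to 242 CPM at 3M and 162 to 274 at 24M, and up to 430 at 12M. Together 8 microglial markers reached 2.55 to 4.20 CPM at 3M and 4.05 to 5.02 at 24M, with C1qa, C1qb, C1qc, Aif1, P2ry12 and Tmem119 below 0.5 CPM in every library. No tested marker of cones, glia, inner retinal neurons, vessels or blood passed the test at 24M, and the part that such cells could have in the lincRNA differences was not tested. In sorted bulk samples a fall in the number of cells of a type and a fall in RNA per cell cannot be told apart.

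Malat1, the RNA of nuclear speckles, was by far the most abundant lincRNA, at 42161 CPM over 16 libraries, and it took 3.18% to 5.42% of all counts of a library. Levels of different genes were compared per kilobase of the main transcript, meaning the most abundant one. Malat1 stood at 6038 CPM per kilobase, ahead of Gm26917 at 2070, Gm42418 at 687, Mir124a-1hg at 488, Gm42428 at 404, Mir124-2hg at 386 and Snhg20 at 332. Mir124a-1hg and Mir124-2hg are hosts of miR-124, a microRNA of neurons, and Snhg20 is a small nucleolar RNA host gene. Gm26917 and Gm42418 lie in a ribosomal RNA repeat on chromosome 17, and their levels are uncertain. So is that of Gm42428, since 100% of the 31-base words (stretches of 31 bases) of its main transcript occur in transcripts of other genes, 94.5% in Gm48275. The share was 96.3% for Gm42418, 96.1% for Gm26905 and 43.1% for Snhg20. Of the 463 members, 248 had a mean of at least 10 CPM, 18 of at least 100 and 6 of at least 1000 in the authors' table.

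**Figure D1:**
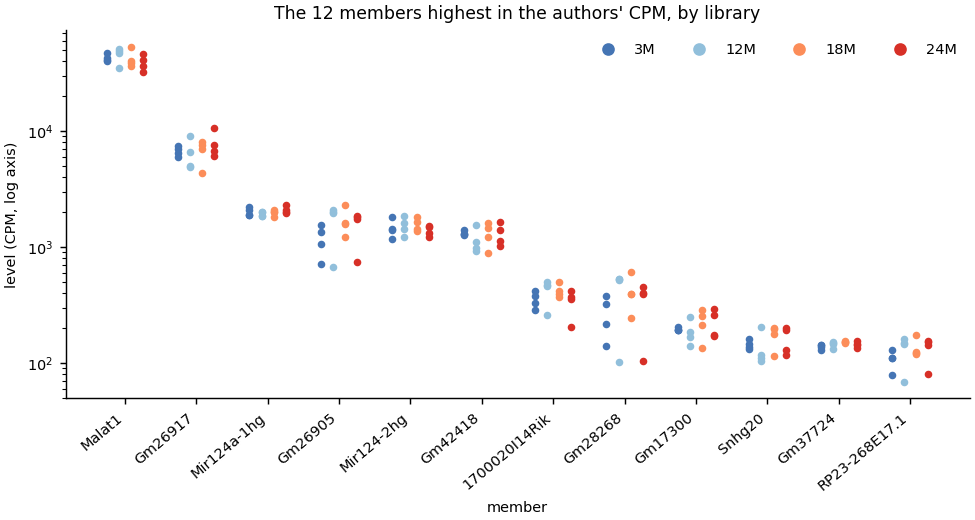
Level of the 12 lincRNAs highest in the authors' table, in CPM on a log axis, with 1 point per library and ages side by side (3M, 12M, 18M, 24M from left to right within a gene). The 24M and 3M libraries overlap for each gene drawn, the 18M libraries of Gm37724 lie above its 3M libraries, and Gm28268 and Gm26905 each have 1 library far below the others at 12M and at 24M.

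None of the most abundant lincRNAs passed the edgeR test between ages. Malat1 measured 47169, 40174, 42774 and 40579 CPM in the 3M libraries and 46033, 36064, 32580 and 40977 CPM in the 24M libraries. Its log2 fold change of -0.13 had an SE of 0.16 and an edgeR adjusted p of 0.83. Mir124a-1hg measured 2086, 1899, 2193 and 1901 CPM at 3M and 1971, 1993, 2317 and 2097 CPM at 24M, which is 0.05 on the log2 scale with an SE of 0.09 (edgeR adjusted p = 0.88). The ages overlapped for both genes. The 12 members highest in the authors' table did not pass the test in any comparison, and their log2 fold changes at 24M ran from -0.13 for Malat1 to 0.38 for Gm26905. The groups overlapped with 3M in each comparison except for Gm37724, whose 18M libraries (148 to 154 CPM) all lay above its 3M libraries (130 to 143 CPM, edgeR adjusted p = 0.43). The authors' deposited table gave 8 of these 12 an adjusted p under 0.05 for any difference among ages. These values ran from 0.0076 for Snhg20 to 0.045 for Malat1. Such a value was given there to 34.6% of the lincRNAs covered and to 26.7% of all genes. The authors' normalized table holds only 13 libraries. In these, age and the dependence of counts on transcript length cannot be told apart between 24M and 3M, as described below. The part of that dependence in the 8 was not tested.

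The ends of the age range, 24M and 3M, differed in 14 of the 453 tested lincRNAs, of which 11 rose and 3 fell. The largest rises were those of Gm28265, 4930579C12Rik and Gm26611, each more than 4-fold, followed by Gm43263, A930014E10Rik, Gm2044 and Gm38399. Gm26912, Gm37233, 9430037G07Rik and 9530082P21Rik rose by less than 2-fold, and Gpr137b-ps, Gm37855 and F630040K05Rik fell. By the same edgeR test with adjusted p under 0.05, 4.25% of all 12177 genes were called, 2.65% higher and 1.6% lower, and the lincRNAs stood at 3.09%, 2.43% and 0.662%, which is not above that background. With library quality weights, and when only the 13 libraries that the authors normalized were fitted, the share of lincRNAs called higher was above that of all genes. It was also above with 3M and 24M alone in the fit (2.43% against 1.89%) and, by little, without 12M replicate 4 (3.53% against 3.44%). It was below with DESeq2 (3.31% against 3.56%) and without 24M replicate 3 (3.09% against 3.27%). The 4 libraries of 24M lay entirely above those of 3M for 28 tested lincRNAs (6.18%) and entirely below for 8 (1.77%), where 5.28% and 5.32% of all genes did so. Of the 14 called lincRNAs, 13 had no such overlap, and the exception was F630040K05Rik.

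**Figure D2:**
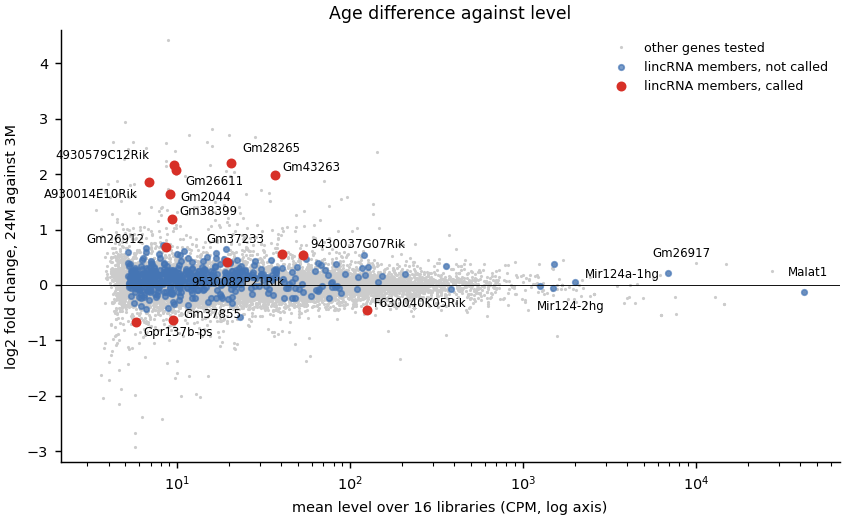
Log2 fold change of 24M against 3M (vertical axis) against the mean CPM over 16 libraries (horizontal log axis) for the 453 tested lincRNAs (blue, not called; red, called) and all other tested genes (grey). Apart from F630040K05Rik the called lincRNAs have means below 100 CPM, and the most abundant ones lie near 0; Gm28876, which is not among the members, lies above the upper edge of the axis.

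Gm43263, a lincRNA of unknown function on chromosome 8 (bases 69473492 to 69474842, GRCm38, minus strand), had the smallest adjusted p of the tested lincRNAs at 24M. It measured 13.6, 14.2, 14.01 and 13.0 CPM at 3M, 40.9, 39.3, 49.03 and 28.3 at 12M, 42.7, 35.8, 45.0 and 36.2 at 18M, and 55.0, 49.3, 42.3 and 70.4 at 24M. Every later library lay above every 3M library, and the 3M libraries lay close together, at 13.7 ± 0.550 CPM (SD, n = 4). Its log2 fold change at 24M was 1.98 (SE 0.17, edgeR adjusted p = 1.4e-06). Of the 31-base words in its main transcript, 49.2% also occur in transcripts of other genes, most of them in Gm45848, so reads may have been divided between such copies. The nearest protein-coding genes, Gm9495 on the left (log2 fold change 1.02, edgeR adjusted p = 0.11) and Gm7697 on the right (below the minimum level), did not pass the test or were not tested.

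Gm2044 on chromosome 7 stepped up at each age. Its libraries measured 4.78, 3.85, 4.97 and 3.54 CPM at 3M, 6.47, 9.24, 9.06 and 6.46 at 12M, 12.6, 9.69, 9.51 and 10.8 at 18M, and 12.7, 13.3, 14.9 and 12.8 at 24M. The 24M libraries lay above every library of the other ages, and the 3M libraries below every one. The log2 fold change at 24M was 1.65 (SE 0.15, edgeR adjusted p = 4.8e-06). Gm2044 spans bases 139957005 to 139958039 of the minus strand (GRCm38), all of it inside Gm16201, a processed transcript of the opposite strand. Gm16201 measured 4.34, 5.24, 4.77 and 3.93 CPM at 3M and 8.85, 7.93, 10.3 and 8.71 at 24M, and rose too (log2 fold change 0.97, edgeR adjusted p = 0.002). The library kit marks strand, and the sources used here do not say whether the counting used it, so reads of these overlapping genes may not have been told apart.

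Gm38399 on chromosome 1 (bases 135606447 to 135688105, minus strand) measured 5.51, 6.37, 6.44 and 5.32 CPM at 3M and 14.4, 14.2, 15.3 and 10.4 at 24M. Its lowest 24M library lay above its highest library at each other age. The log2 fold change was 1.20 (SE 0.12, edgeR adjusted p = 1.2e-05). Gm38399 overlaps Nav1, which encodes a microtubule-associated protein of growing axons, on the same strand, and 6.44% of its 31-base words are shared with it. Nav1 measured 34.3, 31.2, 34.2 and 29.3 CPM at 3M and 71.9, 63.9, 71.7 and 59.1 at 24M (log2 fold change 1.05), so that gene and lincRNA rose together.

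A930014E10Rik on chromosome 6 (bases 142971752 to 142973818, plus strand) measured 2.92, 4.22, 2.53 and 1.51 CPM at 3M and 12.4, 9.35, 9.24 and 9.83 at 24M. The groups did not overlap. The 12M libraries measured 3.28 to 7.79 CPM and the 18M libraries 6.27 to 11.3, so both overlapped their neighbours in age. The log2 fold change was 1.86 (SE 0.29, edgeR adjusted p = 0.00086). Its coding neighbours are St8sia1, a sialyltransferase that makes ganglioside GD3, and C2cd5, a protein with a calcium-binding domain. Their log2 fold changes were -0.06 and 0.13 with edgeR adjusted p of 0.86 and 0.82.

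Gm28265, a transcript of 1 exon on chromosome 15 (bases 103102284 to 103104602, minus strand), had the largest log2 fold change at 24M but also the widest error. Its libraries measured 8.97, 4.87, 3.46 and 4.67 CPM at 3M, 10.03, 11.2, 6.40 and 6.31 at 12M, 19.4, 14.5, 105 and 30.6 at 18M, and 30.0, 24.6, 23.6 and 23.9 at 24M. 3M and 24M did not overlap, and 18M replicate 3 stood far above the rest of its age. The log2 fold change at 24M was 2.21 (SE 0.51, edgeR adjusted p = 0.019). Leaving out 3M replicate 2, 3 or 4 ended the call (adjusted p = 0.072, 0.072 and 0.064), as did leaving out 24M replicate 1 (0.05). The call was kept in the other fits. Its edgeR adjusted p was 0.00025 without 18M replicate 3 and 0.001 with 3M and 24M alone in the fit. Gm28265 lies near the Hoxc genes, wholly inside Gm10830, a lincRNA of the opposite strand that was at 0 CPM in each 3M library and reached 1.86 ± 0.485 CPM by 24M (SD, n = 4). On its own strand Gm28876, which is not counted among the members, ends 172 bases before it, and RefSeq places the start of Gm28876 within 204 bases of the start that GENCODE gives Gm28265. Gm28876 measured at most 0.041 CPM in any 3M library, 1.40 to 2.57 at 12M, 5.57 to 9.29 at 18M and 9.45 to 13.7 at 24M. Smug1, which encodes a glycosylase that removes uracil from DNA, is the nearest coding gene on that strand and rose by 0.57 on the log2 scale (edgeR adjusted p = 0.001), its mean ± SD of 4 libraries being 46.3 ± 4.57 CPM at 3M against 68.6 ± 6.67 at 24M.

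The smaller rises were less than 2-fold. Gm37233 on chromosome 1 (bases 34427002 to 34433264) measured 34.2, 33.8, 34.1 and 30.9 CPM at 3M and 54.3, 44.8, 43.0 and 54.2 at 24M, with no overlap (log2 fold change 0.56, SE 0.12, edgeR adjusted p = 0.0083). Gm26912 on chromosome 12 (bases 110842276 to 110845216) measured 7.51, 5.77, 6.48 and 6.44 CPM at 3M and 9.61, 10.1, 11.0 and 11.6 at 24M, with no overlap either (log2 fold change 0.69, SE 0.12, edgeR adjusted p = 0.0024). Beside it Zfp839, a zinc finger gene of the opposite strand, was higher too (log2 fold change 0.27, edgeR adjusted p = 0.018), and Mok, a kinase gene on its other side, stood at a log2 fold change of 0.00 (adjusted p = 1.00). 9530082P21Rik on chromosome 17 (bases 23743234 to 23754065) stayed between 16.7 and 19.2 CPM in the 3M, 12M and 18M libraries and measured 22.5, 20.8, 26.5 and 23.1 at 24M. Its 24M libraries thus stood alone above the other ages (log2 fold change 0.41, SE 0.08, edgeR adjusted p = 0.006). The call ended with no filter on low counts (adjusted p = 0.072), with only the compared ages in the fit (0.071) and on the authors' CPM (0.055 to 0.058). It overlaps Kremen2 and Flywch1 on the opposite strand, shares 33.3% of its 31-base words with Flywch1, and is labelled antisense in the newer annotation.

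Of the 3 lincRNAs that fell, Gm37855 on chromosome 3 (bases 87157693 to 87162455, plus strand) measured 10.1, 11.1, 14.5 and 12.7 CPM at 3M and 7.60, 6.94, 7.74 and 8.81 at 24M. The groups did not overlap, and the fall was 1.55-fold (log2 fold change -0.63, SE 0.13, edgeR adjusted p = 0.0076). Gm37855 lies inside Kirrel, the gene of a cell adhesion protein of the nephrin family, on the opposite strand. None of the 31-base words of its main transcript occurs in another gene's annotated transcripts, a check that does not cover introns. Kirrel measured 78.3, 82.8, 89.1 and 92.3 CPM at 3M and 44.7, 44.8, 46.9 and 40.5 at 24M, a log2 fold change of -0.95, and it fell as well. Since the use of strand in the counting is not known, reads of Gm37855 and Kirrel may not have been told apart. Gpr137b-ps on chromosome 13 (bases 12619084 to 12650297) measured 8.28, 5.85, 7.21 and 7.69 CPM at 3M and 5.23, 3.94, 4.40 and 4.66 at 24M, without overlap (log2 fold change -0.67, SE 0.15, edgeR adjusted p = 0.012). Its 24M mean lay under 5 CPM, so it entered through its earlier ages and its fall is in part fixed by the choice. The newer annotation calls it a transcribed pseudogene, and 21.9% of its 31-base words occur in its parent gene Gpr137b, so its level is uncertain. F630040K05Rik on chromosome 17 (bases 45734506 to 45788594) had the highest counts of the called lincRNAs and measured 128, 141, 164 and 158 CPM at 3M and 96.1, 96.6, 133 and 104 at 24M. The ages overlapped through 24M replicate 3 (log2 fold change -0.46, SE 0.12, edgeR adjusted p = 0.038), the call ended in 10 of the 16 fits that left out 1 library, and adjusted p rose to as much as 0.13 without 24M replicate 1. Without 24M replicate 3 its log2 fold change was -0.58 with adjusted p = 0.0037.

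**Figure D3:**
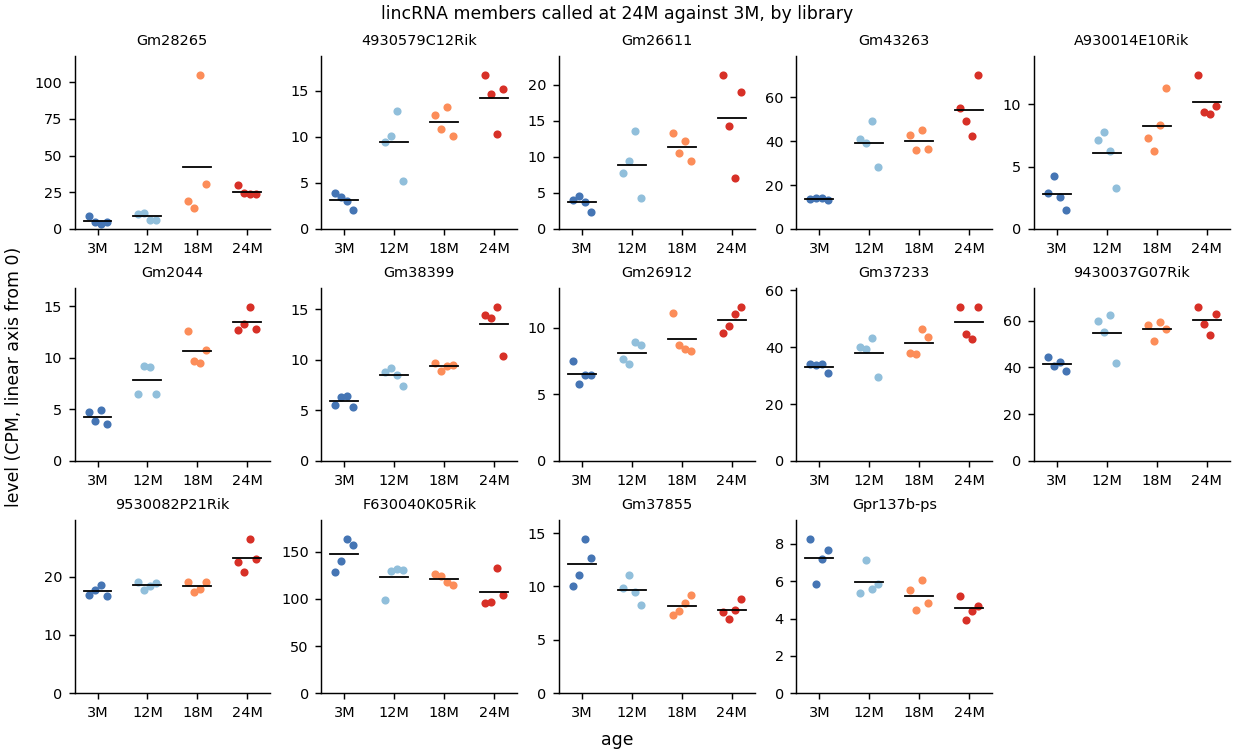
Level in CPM (linear axis from 0) of the 14 lincRNAs called at 24M against 3M, by age, with 1 point per library and a line at the mean of the 4 libraries. The means rise at each step in 9 of the 11 that rose and fall at each step in the 3 that fell; Gm28265 has 1 library at 105 CPM at 18M.

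Of the 11 lincRNAs that rose, 3 lie in 1 stretch of chromosome 9, between bases 88595325 and 89177887 (GRCm38), a length of 583 kb. In order along the chromosome these are 9430037G07Rik (bases 88595325 to 88599516, minus strand), Gm26611 (88859011 to 88883554, plus strand) and 4930579C12Rik (89113111 to 89177887, minus strand), and another member, Gm29562, lies between the first and the second. The stretch was drawn after the values were seen, from the outer edges of the called members, so its outer genes had to be called. It holds 10 tested genes, of which 8 rose and 0 fell (9 and 0 by DESeq2, and 9 and 0 at an unadjusted edgeR p under 0.05), against 2.65% higher among all genes. The 8 include the 3 called members. Gm26611, 4930579C12Rik and the processed transcript Gm2396 were under 5 CPM in every 3M library and passed the minimum level through later ages. The 8 are thus in part fixed by the choice, and their share was not tested against that of all genes. The 300 kb on either side held 9 tested genes, of which 1 rose, Mthfs, which encodes a folate enzyme.

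4930579C12Rik measured 3.94, 3.51, 3.05 and 2.07 CPM at 3M, 9.41, 10.1, 12.8 and 5.25 at 12M, 12.3, 10.8, 13.3 and 10.1 at 18M, and 16.7, 14.6, 10.3 and 15.2 at 24M. Every library of a later age lay above every 3M library. The log2 fold change at 24M was 2.17 (SE 0.25, edgeR adjusted p = 3.5e-05). Gm26611 measured 4.01, 4.53, 3.79 and 2.33 CPM at 3M, 7.82, 9.45, 13.6 and 4.29 at 12M, 13.3, 10.6, 12.2 and 9.39 at 18M, and 21.4, 14.3, 7.07 and 18.9 at 24M. Its 24M replicate 3 was the lowest of its age yet above all 3M libraries (log2 fold change 2.07, SE 0.35, edgeR adjusted p = 0.0016). 9430037G07Rik started from a higher level, 44.2, 40.6, 42.3 and 38.3 CPM at 3M, and reached 65.9, 58.6, 53.9 and 62.9 at 24M (log2 fold change 0.54, SE 0.11, edgeR adjusted p = 0.0062). Gm29562 measured 71.7, 67.0, 76.2 and 60.6 CPM at 3M and 92.8, 88.7, 88.3 and 90.2 at 24M. Its libraries did not overlap, but its log2 fold change of 0.39 had an edgeR adjusted p of 0.091 and was not called.

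Of the other genes of the stretch, 5 rose by amounts that ranged widely. Trim43c, a member of a family of tripartite motif proteins, rose by 2.03 on the log2 scale, from 7.47 ± 1.10 to 30.6 ± 5.69 CPM (SD, n = 4). The processed transcripts Gm2396 and 9330159M07Rik rose by 1.96 and 1.55, the antisense RNA Gm10634 by 1.28, and Mthfsl, a copy of the folate enzyme gene, by 0.55. Trim43b lies inside the stretch and differed by 0.39 on the log2 scale (edgeR adjusted p = 0.50), and Trim43a, just outside it, by 0.47 (0.18). 24M replicate 3 was the lowest 24M library for 9430037G07Rik, Gm29562, Gm26611 and 4930579C12Rik alike.

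**Figure D4:**
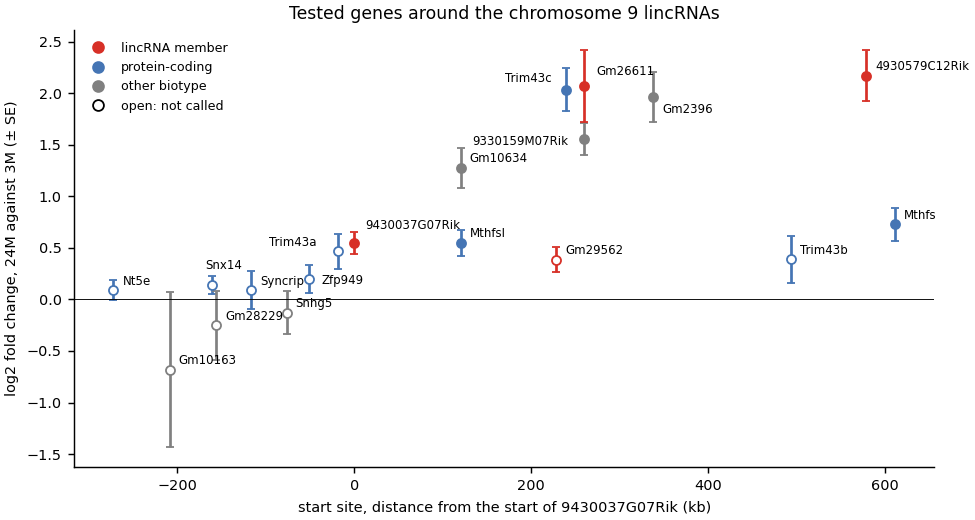
Log2 fold change of 24M against 3M (± SE of the edgeR fit) of the 19 tested genes within 300 kb of the stretch on chromosome 9, by the distance of the start site from that of 9430037G07Rik in kb; filled points were called, red points are lincRNA members. Filled points lie from 9430037G07Rik rightwards, with the highest values at Trim43c, Gm26611, Gm2396 and 4930579C12Rik.

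Some genes of this stretch resemble each other in sequence, which bears on how far their counts are separate. Of the 31-base words of the main transcript of 4930579C12Rik, 67.2% also occur in transcripts of other genes, 61.2% in Gm2396. For 9430037G07Rik the shares were 38.4% and, with 9330159M07Rik, 33.8%. For Trim43c they were 72.1% and, with Trim43b, 51.0%. For Gm29562 they were 87.2% and, with Gm48161, which is not among the tested genes of the stretch, 75.5%. Gm26611 shared none of the 31-base words of its main transcript with transcripts of any other annotated gene, and its log2 fold change was 2.07. Its start lies 141 bases from that of 9330159M07Rik on the opposite strand, and its 3′ part overlaps Gm2396, also on the opposite strand, by 4561 bases. Whether the counting used strand is not said in the sources used here. The part of shared sequence in the rises of the stretch was not tested.

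The RefSeq windows of 250 bases before to 50 after the start of each gene (GRCm38.p6) are printed for the stretch that 9430037G07Rik and 9330159M07Rik share. 9430037G07Rik (chr9:88599194-88599493, minus strand) and 9330159M07Rik (chr9:88858752-88859051, minus strand) share an aligned stretch, in capitals, with 87 of 88 columns identical, no mismatch and 1 gap (98.9%). In 9330159M07Rik it lies over the start and in 9430037G07Rik at the upper end of the window, inside the span that GENCODE gives this gene, up to base 88599516. On either side the aligned stretch ends at the edge of a window, so the windows do not show where the copy begins or ends. Lower-case bases beside the capitals may belong to it, and some of those after the capitals of 9430037G07Rik do. The window of Gm26611 (chr9:88858718-88859017, plus strand) shares 266 bases with that of 9330159M07Rik, read on the opposite strand. Where it runs on below that window, its bases, read on the minus strand, match nearly all the lower-case bases next after the capitals of 9430037G07Rik. This match reaches the edge of the Gm26611 window. In the window of 4930579C12Rik (chr9:89177838-89178137, minus strand), the best local alignment with 9330159M07Rik had 25 identical of 37 columns, so it holds no such copy.
9430037G07Rik: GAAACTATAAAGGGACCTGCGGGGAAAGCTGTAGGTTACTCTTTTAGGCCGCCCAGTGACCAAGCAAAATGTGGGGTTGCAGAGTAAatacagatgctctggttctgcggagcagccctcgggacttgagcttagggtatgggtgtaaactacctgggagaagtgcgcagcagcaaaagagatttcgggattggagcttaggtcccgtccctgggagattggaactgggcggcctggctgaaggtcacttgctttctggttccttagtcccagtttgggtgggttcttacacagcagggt
9330159M07Rik: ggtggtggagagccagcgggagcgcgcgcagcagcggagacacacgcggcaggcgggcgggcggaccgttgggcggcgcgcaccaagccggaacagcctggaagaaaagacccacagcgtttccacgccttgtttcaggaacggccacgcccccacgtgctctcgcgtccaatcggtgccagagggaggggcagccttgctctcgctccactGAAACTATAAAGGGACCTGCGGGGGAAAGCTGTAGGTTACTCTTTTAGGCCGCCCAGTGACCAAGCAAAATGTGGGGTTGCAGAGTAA
4930579C12Rik: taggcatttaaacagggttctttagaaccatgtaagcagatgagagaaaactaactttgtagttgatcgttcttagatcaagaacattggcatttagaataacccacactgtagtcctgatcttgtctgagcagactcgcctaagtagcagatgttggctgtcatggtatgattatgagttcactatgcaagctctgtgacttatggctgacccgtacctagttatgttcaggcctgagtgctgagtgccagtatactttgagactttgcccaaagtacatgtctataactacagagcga

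The GC content of these windows was 53.3% for 9430037G07Rik, 63.7% for 9330159M07Rik and 42.0% for 4930579C12Rik, with 8, 26 and 4 CpG dinucleotides. Among all tested lincRNAs, 176 had RefSeq windows, 212 in number, with a median GC content of 52.5% and 8 CpG against 52.7% and 7 over the 32851 windows of the table. The letters TAATCC, the core recognised by the photoreceptor homeodomain factor Crx, occurred on either strand in 24 of the 212 (11.3%) and in 7.06% of all windows. The letters TGCTGA, part of the element recognised by Nrl and other Maf factors, occurred in 16.5% and 19.5%. A match of this kind is a description of the letters and not evidence of binding.

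At 18M, 9 lincRNAs differed from 3M, and each was also among the 14 called at 24M. The 8 that rose were Gm28265, 4930579C12Rik, Gm26611, Gm43263, A930014E10Rik, Gm2044, Gm38399 and 9430037G07Rik, and the 1 that fell was Gm37855. Over all genes 2.64% were called, 1.68% higher and 0.961% lower, and over the tested lincRNAs 1.99%, 1.77% and 0.221%. The log2 fold changes of 4930579C12Rik and Gm43263 were 1.88 (SE 0.25, edgeR adjusted p = 0.00022) and 1.54 (SE 0.16, adjusted p = 2.7e-05). That of Gm28265 was 2.94 (SE 0.52, edgeR adjusted p = 0.0036), and without 18M replicate 3 it was 1.96 with adjusted p = 0.0019. The fall of Gm37855 (-0.56, edgeR adjusted p = 0.026) was not called in 6 of 28 alternatives, among them the fit without 18M replicate 3 (-0.58, adjusted p = 0.062). The call of 9430037G07Rik ended in 12 (adjusted p up to 0.13) and that of Gm26611 in 3 (up to 0.064). The 18M libraries lay entirely above 3M for 67 tested lincRNAs (14.8%, against 7.22% of all genes) and entirely below for 8 (1.77%, against 6.46%). Without 12M replicate 4 the calls were 19 higher and 1 lower (4.19% and 0.221%, against 2.54% and 1.66% of all genes), and without 24M replicate 3 they were 15 and 1 (3.31% and 0.221%, against 2.36% and 1.27%), in each case with all 9 among them.

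At 12M, 4 lincRNAs had already risen and 0 had fallen by edgeR, with 14 lower at an unadjusted p under 0.05 and 0 called lower by DESeq2. Gm43263 rose by 1.52 on the log2 scale (SE 0.16, edgeR adjusted p = 6.7e-05), 4930579C12Rik by 1.58 (SE 0.25, adjusted p = 0.0023), Gm2044 by 0.87 (SE 0.15, adjusted p = 0.0066) and Gm38399 by 0.52 (SE 0.12, adjusted p = 0.048). The call of Gm38399 at 12M ended in 19 of 28 alternatives, 13 of them fits that left out 1 library (adjusted p up to 0.18), and that of Gm2044 in 1, with only the compared ages in the fit (0.077). The 12M, 18M and 24M means of Gm43263 were 39.4 ± 8.52, 39.9 ± 4.64 and 54.2 ± 12.0 CPM (SD, n = 4), so most of its difference from 3M was present at 12M. Called genes made up 0.883% of the tested lincRNAs and 1.39% of all genes, 0.977% higher and 0.411% lower. The libraries of 12M lay wholly above 3M for 5 lincRNAs (1.10%) and below for 7 (1.55%), against 2.42% and 2.67% of all genes. These comparisons share the 3M libraries, so that the same genes appear in them is not separate evidence. Without 12M replicate 4 the 12M calls were 17 higher and 2 lower, the 4 among them (3.75% and 0.442%, against 2.25% and 2.13% of all genes).

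The test for any difference among the 4 ages called 11 lincRNAs (2.43%, against 2.82% of all genes), all of them among the 14. Gm37233, Gpr137b-ps and F630040K05Rik were the 3 it did not call, with edgeR adjusted p of 0.055, 0.065 and 0.2. Without 3M replicate 3 or 4 the count was 7 or 6, all of them among the 11, and the share of all genes called in those fits is not given here.

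The bulk of the lincRNAs shifted together by a small amount that varied from library to library. Their median log2 fold change was 0.12 at 24M, 0.17 at 18M and 0.14 at 12M, where all tested genes had medians of 0.01, 0.01 and 0.00, and at 24M 330 of 453 lay above 0 against 6417 of 12177 genes. Within an age the libraries differed by more than this. The median lincRNA of 12M replicate 4 stood 0.39 below its mean over libraries on the log2 scale, 24M replicate 3 stood 0.25 below and 3M replicate 4 0.22 below, whereas 18M replicate 3 stood 0.27 above. The lowest 12M value was that of replicate 4 for 361 of the 453 tested lincRNAs, the lowest 24M value that of replicate 3 for 318, and the highest 18M value that of replicate 3 for 317. Antisense RNAs moved the same way, by -0.34 in 12M replicate 4, and the medians of protein-coding genes stayed between -0.03 and 0.03.

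**Figure D5:**
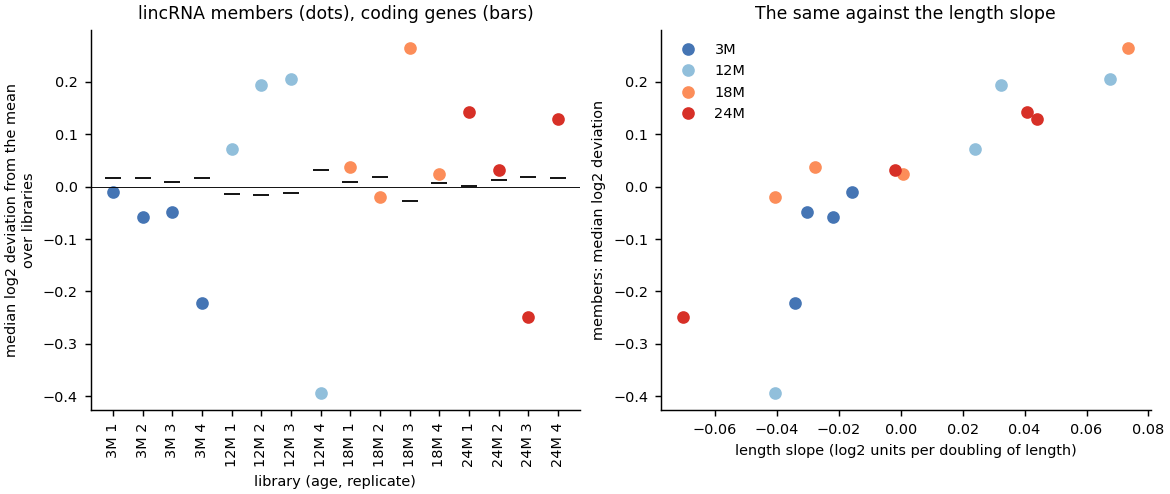
Left, the median over lincRNA members of the log2 deviation from the mean over libraries (dots, coloured by age) and the same for protein-coding genes (bars), by library; right, the dots against the length slope of the library in log2 units per doubling of transcript length. Dots run from -0.39 for 12M replicate 4 to 0.27 for 18M replicate 3 and bars stay between -0.03 and 0.03. The 6 libraries of highest length slope have dots above 0, and 18M replicate 2 has the slope of 12M replicate 4 but a dot near 0.

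The same libraries differed in how their counts depended on transcript length. The length slope says by how much a gene of doubled main-transcript length lies higher or lower in 1 library, relative to its average log2 CPM. It was -0.041 in 12M replicate 4, -0.070 in 24M replicate 3 and -0.034 in 3M replicate 4, and 0.073 in 18M replicate 3 and 0.067 in 12M replicate 3. Libraries of like slope could still differ in level, as 18M replicate 2 had the same slope as 12M replicate 4, -0.041, with a median lincRNA only 0.02 below its mean. With the slope as a covariate the median log2 fold change of lincRNAs was -0.01 at 24M, 0.06 at 18M and -0.06 at 12M, so at 24M and 12M its sign turned. All 14 called lincRNAs remained called at 24M with this covariate, and the counts became 20 higher and 13 lower (4.42% and 2.87%), in a fit that called 5.79% of all genes higher and 4.87% lower. With limma voom and a quality weight per library 113 were higher and 11 lower (24.9% and 2.43%), against 13.6% of all genes higher and 13.6% lower. When the fit was limited to the 13 libraries kept in the authors' normalized table, which lacks 12M replicate 4, 18M replicate 3 and 24M replicate 3, the median was 0.19 at 24M, and 123 lincRNAs were higher and 10 lower (27.2% and 2.21%), against 12.2% and 11.4% of all genes. In those 13 libraries every 12M and 24M library had a higher length slope than every 3M library, so age and length slope cannot be told apart there.

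No lincRNA on lists of well-studied noncoding RNAs that was tested on the counts was called at 24M. Of 8 imprinted RNAs listed only Meg3, the maternally expressed RNA of the Dlk1 locus, was a member (20.1 CPM, log2 fold change 0.41, edgeR adjusted p = 0.72). Of 6 listed RNAs of the X chromosome, Jpx and Ftx were members, with log2 fold changes of 0.03 and 0.25. Malat1 and Neat1, the scaffold of paraspeckles, were the members among 3 nuclear-body RNAs, and the 3M and 24M means of Neat1 were 44.2 ± 1.77 and 42.5 ± 5.88 CPM (SD, n = 4), which is -0.05 on the log2 scale. Among 20 small nucleolar RNA hosts, Snhg6, Snhg12 and Snhg20 were members, at -0.10, -0.10 and 0.16. Among 17 noncoding RNAs known from retina, 4 were members, and Otx2os1, transcribed beside the photoreceptor gene Otx2, was at 0.11 on that scale (edgeR adjusted p = 0.83). Of 28 abundant or conserved RNAs 6 were members and 4 were tested (Dancr, on this list but not matched to the counts, was lower at 24M on the authors' CPM, with a log2 difference of -0.81 and a limma adjusted p of 0.040), among them 1700020I14Rik, the conserved RNA also called Cyrano (-0.06), and Pvt1, the neighbour of Myc (0.32). Of the 17 tested lincRNAs on these lists, 0 rose and 0 fell at 24M by edgeR and by DESeq2, and 1, Mir17hg, was lower at an unadjusted p under 0.05 by either tool. The list medians ran from -0.10 for small nucleolar RNA hosts to 0.41 for the single imprinted member, beside 0.12 for all tested lincRNAs.

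Some lincRNAs are precursors of microRNAs, which pair with messenger RNAs through their seed, bases 2 to 8. Among the sequences used here, 14 members contained 24 microRNA hairpins of the RefSeq table on the same strand, and 2 of these hosts rose at 24M, where 2.65% of all genes were called higher. The count of hosts is small, and no difference from other genes was tested. Gm2044 contains the hairpins of miR-202, a microRNA known from the gonads, and miR-7686, and Gm37233 that of miR-5103. The other 12 hosts were not called, with log2 fold changes from -0.35 for Mir17hg (SE 0.14, edgeR adjusted p = 0.24), the host of the miR-17 to miR-92a cluster, to 0.41 for Meg3. 6720427I07Rik, which spans let-7a-1, let-7f-1 and let-7d in GENCODE, stood at -0.23 (edgeR adjusted p = 0.48) and C130071C03Rik, the host of the neural miR-9, at -0.07 (adjusted p = 0.86). Mir124a-1hg and Mir124-2hg, on the list of microRNA hosts, are described above, and Pvt1 and Ftx are on that list too. The mature sequences of the called hosts are shown with those of let-7 and miR-9 for comparison (RefSeq, GRCm38.p6), with the seed in capitals.
mmu-miR-202-3p: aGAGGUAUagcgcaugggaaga
mmu-miR-202-5p: uUCCUAUGcauauacuucuuu
mmu-miR-7686-3p: cUGCUCGGggcacuguaagaga
mmu-miR-7686-5p: cCUUCCACuggaccuggggcugggc
mmu-miR-5103: uCAUCCGGgauccccugagg
mmu-let-7a-5p: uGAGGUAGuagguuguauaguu
mmu-let-7d-5p: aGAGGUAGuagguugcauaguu
mmu-let-7f-5p: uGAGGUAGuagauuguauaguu
mmu-miR-9-5p: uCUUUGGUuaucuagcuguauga

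The 3 let-7 sequences share the seed GAGGUAG, and miR-202-3p carries GAGGUAU. The microRNA genes Mir202 and Mir5103 were listed with 0 CPM at 3M and at 24M, and the values above are those of the host transcripts. Mature microRNAs were not measured by these libraries, and none of these values speaks of their level.

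Of 28 coding genes nearest to the called lincRNAs, 1 on each side, 18 were tested, 4 rose and no fall passed the test, where 2.65% of all genes were called higher and 1.6% lower. The 4 were Smug1 beside Gm28265, Trim43c beside Gm26611, Zfp839 beside Gm26912 and Mthfsl beside 9430037G07Rik, and 2 of these lie in the stretch on chromosome 9. Besides these neighbours, coding genes that overlap a called lincRNA and changed were Nav1, which rose as Gm38399 did, and Kirrel, which fell as Gm37855 did. Hoxc4 beside Gm28265 was at 0.14 on the log2 scale (edgeR adjusted p = 0.67) and Vegfa, the vascular growth factor gene 228398 bases from F630040K05Rik, at -0.05 (adjusted p = 0.90).

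As a class the tested lincRNAs had shorter and less GC-rich transcripts than protein-coding genes. The median length of the main transcript was 2197 bases with 2 exons and 45.9% GC, against 3108 bases, 8 exons and 49.4% for 10271 protein-coding genes and 1624 bases, 2 exons and 47.8% for 383 antisense RNAs. A single exon was present in 64 of the 453 (14.1%), against 4.36% of coding genes. Their median level was 11.3 CPM, against 28.9 for coding genes. Within the middle range of lincRNA levels, 7.26 to 21.6 CPM, the median coefficient of variation within an age was 15.9% for lincRNAs, 14.7% for antisense RNAs and 13.3% for coding genes. The share called higher at 24M was 2.43% of lincRNAs, 2.35% of antisense RNAs and 2.78% of coding genes, and lower 0.662%, 0.522% and 1.82%. The order of the shares called higher was another one in the 13 libraries, where lincRNAs were at 27.2%, antisense RNAs at 21.5% and coding genes at 10.8%. Over the tested lincRNAs a median of 5.66% of the 31-base words also occurred in another gene's transcripts, 51 had no such word and 43 had more than 50%. Of the 14 called, 1 was above that, 4930579C12Rik.

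The authors' deposited table of log2 differences covered 457 of the lincRNAs, of which 158 (34.6%) had an adjusted p under 0.05 for any difference, against 26.7% of all its 11826 genes. All 14 lincRNAs called here at 24M were among the 158. For Gm28265 at 18M the table gave 1.97, where the fit to the 13 libraries gave 1.96 and the fit to all libraries 2.94. For Gm43263 at 24M it gave 2.08, where these fits gave 2.09 and 1.98. In these values the table lay nearer to the fit to the 13 libraries. In those libraries age and length slope cannot be told apart between 24M and 3M. The part of the length slope in the 158 was not tested. The authors' deposited table gave differences of 24M from 3M of 2.08 for Gm43263, 2.33 for 4930579C12Rik, 2.33 for Gm26611, 2.32 for Gm28265 and 1.60 for Gm2044. For Dancr, a conserved cytoplasmic RNA that was not matched to the counts, the authors' deposited table gave -1.01 at 24M. A limma test on the authors' CPM for the unmatched rows gave Dancr a log2 difference of -0.81 at 24M on the log2(CPM + 0.5) scale, with an adjusted p of 0.040, and the other 8 unmatched rows adjusted p of 0.47 to 0.92.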

How the data were processed

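The members, lists and tests were chosen with earlier results of these data known. The authors deposited estimated counts per transcript for 16 libraries of sorted rods, 4 per age. GRCm38.p4, limma 3.32.2, edgeR 3.13.9 and kallisto 0.42.5 are listed without role or order in the submitters' processing notes, and the sources used here give neither the strand setting nor the annotation of the counting. The authors' gene table holds a CPM signal, which chose the members, and their normalized table a CPM signal of 13 libraries. Per the file headers, the table of comparisons the authors deposited has an F statistic (a score), p-values and log2 differences from 3M.

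Here 111896 of 113468 transcripts were matched to GENCODE M21 genes by identifier (unmatched, 0.730% to 1.08% of counts), summed per gene and rounded. The test covered the 12177 genes that reached 5 CPM in 4 or more libraries, and used edgeR 4.0.16 in R 4.3.3 by its quasi-likelihood fit of 1 mean for each age to all 16 libraries, scaled by TMM factors. Benjamini-Hochberg adjusted p under 0.05 over all genes is a call, and printed CPM use the TMM factors. The common coefficient of biological variation was 0.169. Fits were tested on simulated data. PCR reads are not independent molecules, and p-values measure the spread between these libraries. Over all 120 pairs of libraries, chi-square per degree of freedom was 8.99 or more, so no pair agreed within sampling noise.

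Members were named if called at 24M (up to 12 rises and 12 falls) or at 18M or 12M (up to 6 each), among the 12 highest by level, on a fixed list, or, for coding genes, nearest to a called member. Other genes of the chromosome 9 stretch, genes that overlap a called member, further microRNA hosts, Gm42428 and the rows at the threshold or not matched were named after their values were seen. Alternatives were DESeq2 1.42.0, its size factors, filters of 1 CPM or none, limma 3.58.1 voom with quality weights, limma on log2 of the authors' CPM with pseudocounts of 0.5 and 2, a length slope, the 13 libraries, compared ages only, a replicate block and leaving out each library. Limma on all genes of the authors' CPM table was added after seeing the data.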

Additional observations from a re-analysis of the deposited data

Results flagged for a closer look

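In groups of 4 libraries, a library was singled out when its gap to the nearest other was a larger share of the range of the group than Dixon's 95% critical value for 4 libraries. This held for 16 of 148 groups of named lincRNAs, where chance gives about 1 in 20.

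Among lincRNAs called at 24M, Gm28265 stood at 30.0 CPM in 24M replicate 1, above 23.6 to 24.6 in the others. Gm26912 stood at 11.1 CPM in 18M replicate 1, above 8.28 to 8.68. Gm37233 stood at 30.9 CPM in 3M replicate 4, below 33.8 to 34.2, and F630040K05Rik at 98.9 CPM in 12M replicate 1, below 130 to 132.

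The libraries 12M replicate 4 and 24M replicate 3 accounted for most of the other cases. In 12M replicate 4, Gm26905 stood at 667 CPM against 1953 to 2083 in the other 12M libraries, Gm28268 at 102 CPM against 516 to 533 and the chromosome 7 lincRNA ENSMUSG00000108803 at 68.8 CPM against 147 to 160. Snhg20, by contrast, stood higher there, at 202 CPM against 104 to 117. In 24M replicate 3, Gm26905 stood at 738 CPM against 1738 to 1831, Gm28268 at 104 CPM against 391 to 450, ENSMUSG00000108803 at 80.7 CPM against 144 to 154 and Otx2os1 at 30.3 CPM against 42.6 to 45.1. These libraries also had length slopes of -0.041 and -0.070, and the part of the slope in these values was not tested.

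ENSMUSG00000108803 stood at 173 CPM in 18M replicate 3, above 120 to 125 in the others of that age. In 3M replicate 4, Gm17300 stood at 206 CPM above 190 to 193, and Snhg12 at 15.0 CPM above 12.5 to 12.8. Gm26870, which did not pass the minimum level, stood at 25.8 CPM in 12M replicate 1 against 1.82 to 3.58 in the others, and it also reached 29.4 CPM in 18M replicate 3.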

How the results depend on the processing

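Of the 14 lincRNAs called at 24M, at least 12 remained called in each alternative run. Adding the length slope to the fit gave 33 at 24M, 24 at 18M and 25 for any difference (10.7%, 5.37% and 6.9% of all genes called). In the 13 libraries they were 133, 34, 210 at 12M and 169 (23.6%, 5.85%, 38.4% and 29% of all genes). Voom with quality weights gave 124, 43, 246 and 217 (27.2%, 9.12%, 47.9% and 44.6%). DESeq2 gave 19 at 18M, 7 at 12M and 17 for any difference (4.34%, 2.57% and 5.46%), and fits of the compared ages only gave 21 at 18M and 2 at 12M (4.04% and 0.87%). Leaving out 1 library at a time gave 12 to 19 calls at 24M, 6 to 20 at 18M, 3 to 19 at 12M and 6 to 16 for any difference. The highest count of each came without 12M replicate 4, where 5.95%, 4.2%, 4.38% and 4.45% of all genes were called, in the same order. For most other fits that left out 1 library the share of all genes is not given here. The causes of these changes were not tested. The log2 fold changes of the 14 kept their sign in all 28 alternatives. Calls ended for Gm28265 in 4 of them, for 9530082P21Rik in 5 and for F630040K05Rik in 12, and for no other of the 14.

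A replicate block, that is the replicate number as a further term, called 14 lincRNAs at 24M, while 18M, 12M and any difference had 8, 4 and 8. The share of all genes called with that term is not given here. The labels do not say that a number marks a shared animal or batch, and the deviations of same-numbered libraries had correlations from -0.76 to 0.74, with 12 of 24 above 0.1, so the numbers were not taken as pairs.

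With 4 libraries an age and a coefficient of biological variation of 0.169, precision is limited, and a lincRNA without a call is not shown to be unchanged. Estimated counts of lincRNAs that share sequence with other genes depend on how reads were divided between them.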
